A study of Gallus gallus with 4 samples.

Results

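Wnt genes were followed across 4 arrays of chick chorioretina, the retina together with the choroid behind it. Members were the genes whose symbol named a Wnt ligand, a Frizzled receptor, a co-receptor LRP5 or LRP6, a secreted Wnt inhibitor or R-spondin, or 1 of the intracellular genes CTNNB1, AXIN1, AXIN2, TCF7, TCF7L2 and LEF1. Of 5294 genes with a named probe, 34 were members, with 75 probes. They were 14 ligands, 9 receptors and co-receptors, 5 secreted inhibitors and 6 intracellular genes. Another 16 members of the reference annotation, among them LRP6 and all 4 R-spondins, had no probe named by accession and were not analysed here.

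All chicks were from the same experiment, in which a glass goggle was placed over the right eye on day 6 after hatching to induce myopia, while the left eye was uncovered. The goggle stayed on for 7 days, with 12 hours of light a day that was either normal or violet. On day 13 a button 6 mm wide was trephined from the posterior eyecup, on the temporal side of the optic nerve, and its chorioretina dissected. RNA of 4 eyes was mixed into each pool, and each pool was read on 1 array. Normal light gave a pool of uncovered and a pool of covered eyes, and violet light gave the same pair. The sample titles name the tissue as retina alone. Strain and sex were not given in the sources used here, and right and left eyes are from a shared set of 8 chicks. With 1 array a group, no difference below has an error between animals and none was tested. In a bulk sample, fewer cells of a type and less RNA per cell cannot be told apart.

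Wnt proteins are secreted signals that bind Frizzled receptors, with LRP5 or LRP6 as co-receptor in the canonical branch. Binding stops the complex of AXIN1 or AXIN2 from marking beta-catenin, the product of CTNNB1, for breakdown, and beta-catenin then works with TCF and LEF factors in the nucleus. Secreted Frizzled-related proteins (SFRP1, SFRP2 and FRZB) and WIF1 bind Wnt proteins outside the cell and keep them from the receptors. In the eye, the pathway is known for its part in forming the ciliary margin and the pigment epithelium, and FZD4 with LRP5 also receives Norrin, a signal for the growth of blood vessels.

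Levels are log2 of the processed signal with the 75th percentile of each array at 0, so a level below 0 is a probe dimmer than that percentile. A probe was used where Feature Extraction marked it well above background on all 4 arrays, and a gene was represented by its brightest such probe. That left 29 members among 4807 genes. Levels of different genes come from different probes and were not set against each other. A difference of 1 on the log2 scale, which is 2-fold, was the size counted. The percentage of all 4807 genes reaching that size stands beside the members' counts in each comparison, and is not matched for probe level. For probes printed repeatedly on the arrays, the SD of a log2 difference between single spots lay between 0.0822 and 0.0882, which covers spot error alone.

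The 2 deposited sources disagree on the names of 2 arrays. The value table's column for uncovered normal light correlated with the scanner file of covered violet light at 0.99921 across probes, against 0.98125 for its own scanner file. Its column for covered violet light correlated with the scanner file of uncovered normal light at 0.99974, against 0.98153. The other 2 columns matched their own scanner files, at 0.99962 and 0.9995. Pools are named here by the scanner files. Under the table's labels the uncovered normal-light and covered violet-light names change places, so a goggle difference becomes a light difference of opposite sign in the eyes that share the pair, and the reverse. Before scaling, the 75th percentile of the signal was 2108 (uncovered, normal), 1325 (uncovered, violet), 797.5 (covered, normal) and 883 (covered, violet). The uncovered normal-light array correlated with the covered normal-light and covered violet-light arrays at 0.9797 and 0.98211 across probes, the lowest of all pairs. With uncovered violet light it correlated at 0.98841, within the 0.9877 to 0.99258 among the other arrays.

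Of 9 inner retinal markers 6 passed, as did 7 of 8 pigment cell and 6 of 12 endothelial markers. Markers of muscle and lens passed too. Summed over 6 striated muscle genes, the linear level was 0.645 (uncovered, normal), 0.555 (uncovered, violet), 20.5 (covered, normal) and 1.91 (covered, violet). Summed over 6 lens genes it was 0.558, 10.2, 2.99 and 1.55 in the same order. Whether such tissue carried RNA of Wnt genes was not tested.

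Most members spanned less than 2-fold over the 4 pools. At least 2-fold was reached by 7 of 29, a larger share than the 9.59% of all genes, which was not tested. These were the ligands WNT9A and WNT8A, the receptors FZD1, FZD4, FZD7 and FZD10 and the transcription factor TCF7L2. No secreted inhibitor spanned 2-fold. With this scaling, the widest span was 1.88, for WNT9A, and the narrowest was 0.10, for LEF1, whose probe was dim.

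**Figure D1:**
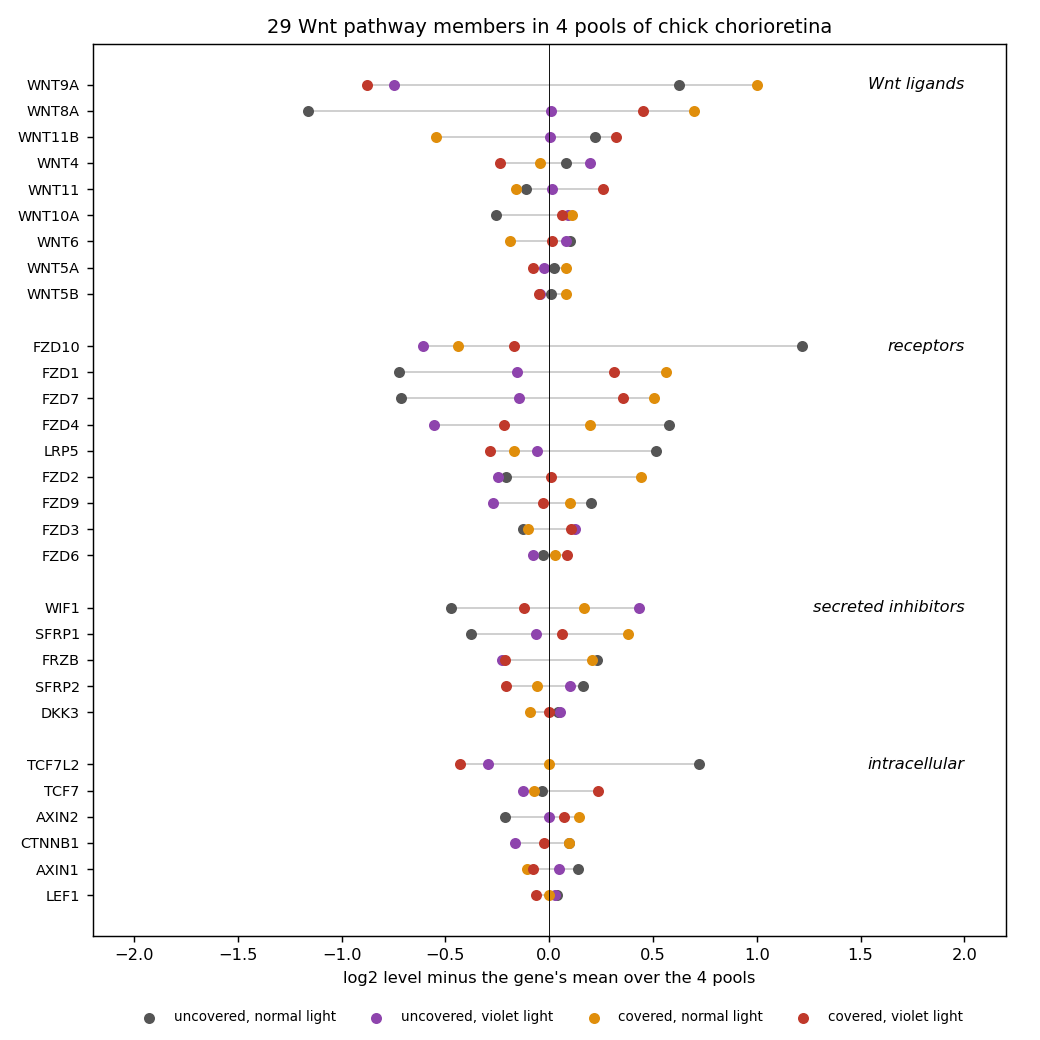
Each row is 1 of the 29 members and each point 1 pool, as the log2 level minus the gene's own mean over the 4 pools, with pools named by the scanner files. WNT9A splits into the normal-light pools on the right and the violet-light pools on the left, while FZD10 has 1 pool, uncovered normal light, far from the other 3.

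Of the Wnt ligands, 9 of 14 were well above background on all 4 arrays. WNT9A (NM_204981), a ligand known from joint formation in chick and mouse limbs, separated the pools most. Its log2 level was 0.22 in uncovered and 0.59 in covered eyes under normal light, and -1.16 in uncovered and -1.29 in covered eyes under violet light. Both normal-light pools thus lay above both violet-light pools. The difference, violet minus normal light, was -1.38 in uncovered eyes (2.60-fold) and -1.88 in covered eyes (3.69-fold), while goggles differed by 0.38 under normal and -0.13 under violet light. No other member reached 2-fold in this direction in uncovered and covered eyes alike, and 0.811% of all genes did. In the opposite direction 0 members and 0.0208% of genes did. It had 1 probe, so no second probe bears on it.

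The reading of WNT9A turns on the labels. Under the table's labels the same arrays put both covered pools above both uncovered pools, with a goggle difference of 1.88 under normal and 1.38 under violet light, and light differences of 0.13 and -0.38. In the authors' deposited table itself, its goggle differences were 1.94 and 1.34 on the log2 scale. Both sources name the covered normal-light and the uncovered violet-light arrays alike, and between these WNT9A was 1.75 higher in the covered normal-light pool (3.37-fold). It was the only member to reach 2-fold there, where 2.5% of all genes were at least 2-fold higher. No member was 2-fold lower, against 0.686% of genes.

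Markers of vessels and connective tissue moved with WNT9A. Of 6 measured endothelial markers, 5 lay 2-fold or more below normal light in each eye, with a list median of -1.47 in uncovered eyes and of -1.52 in covered eyes. Of 9 fibroblast and matrix markers, 6 were in each eye, with medians of -1.27 and -1.09. These were not all the same genes, with FN1 among them in uncovered eyes alone and POSTN in covered eyes alone. The summed linear level of the endothelial list was 5.72 and 5.49 in the uncovered and covered normal-light pools, and 4.26 and 4.32 in the violet-light pools. That of the fibroblast list was 19.6 and 17.4, against 8.53 and 8.41. Of 3 smooth muscle markers, 2 were 2-fold lower in each eye, with medians of -1.002 and -1.07. They were ACTA2 and MYH11 in uncovered eyes and ACTA2 and TAGLN in covered eyes. All 3 were 2-fold higher in covered normal than in uncovered violet light. The summed level of the 3 was 1.93 and 2.48 in the normal-light pools, against 0.83 and 1.14. Of these lists, CNN1, DES, PDGFRB, RGS5, PECAM1, TEK, SOX7, VWF, TIE1, ERG and COL1A1 had no probe that was named and passed. The part of these tissues in the WNT9A difference was not tested.

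WNT8A (NM_205531), an early patterning ligand of mesoderm and neural tissue, was lowest in 1 pool. Its log2 level was -2.86 in uncovered normal light, -1.69 in uncovered violet light, -0.999 in covered normal light and -1.24 in covered violet light. Covered minus uncovered was 1.86 under normal light (3.63-fold) and 0.45 under violet light. Violet minus normal light was 1.17 in uncovered and -0.25 in covered eyes. A second WNT8A probe was not well above background on any array.

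The other 7 passing ligands stayed under 2-fold in all 4 comparisons. WNT11B, of the non-canonical WNT11 group, came nearest, at -5.25, -5.47, -6.02 and -5.15 in uncovered normal, uncovered violet, covered normal and covered violet light. It was thus lowest in the covered normal-light pool, by 0.76 against uncovered normal and 0.87 against covered violet light. The probe was dim, and with normexp background correction its goggle difference under normal light turned from -0.76 to 0.63 and its light difference in covered eyes went to 0.08. That correction adds an offset of 50 to the signal, which stood above this probe's level on all arrays but uncovered normal light. WNT5A, the main ligand of beta-catenin-independent signalling, spanned only 0.16 over the pools, and its relative WNT5B 0.13. WNT4, WNT6, WNT10A and WNT11 spanned 0.29 to 0.44 by their brightest probes. For WNT4, covered minus uncovered was -0.12 under normal and -0.44 under violet light by that probe, and 0.50 and 0.75 by its other probe. WNT3, WNT3A, WNT7A and WNT7B, known from neural tube and limb, had no probe well above background on any array. WNT2B, a ligand of the chick ciliary margin, was well above background in the covered normal-light pool alone. There it was 2.11-fold above a floor for the uncovered normal-light pool and 1.18-fold above a floor for the covered violet-light pool. Each floor is the lowest signal marked well above background on the dimmer array, or the probe's own if higher. The floors were -7.41 and -6.56 in log2 level, so the 2 folds differ with the array. The cutoff of a given probe could lie higher. The log2 levels of the WNT2B probe as measured were -9.67, -9.21, -6.33 and -8.84.

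All 9 receptors and co-receptors with a probe passed. FZD10 (NM_204098), a receptor of the dorsal neural tube in chick, was highest in 1 pool. Its log2 level was -4.55 in uncovered normal light, against -6.38 in uncovered violet light, -6.21 in covered normal light and -5.94 in covered violet light. Covered minus uncovered was -1.65 under normal light (3.15-fold) and 0.44 under violet light, and violet minus normal light was -1.83 in uncovered and 0.27 in covered eyes. The probe was dim, and with normexp background correction the goggle difference under normal light became 0.27 and the light difference in uncovered eyes -0.35, so neither reached 2-fold. It was the only probe of the gene. The offset of that correction stood above its level on all arrays but uncovered normal light.

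FZD4 (NM_204099), the Norrin receptor of vascular endothelium, had log2 levels of 0.29 and -0.09 in uncovered and covered normal light, and -0.84 and -0.51 in uncovered and covered violet light. Both violet-light pools lay below both normal-light pools. Violet minus normal light was -1.13 in uncovered eyes (2.19-fold) and -0.41 in covered eyes, and goggles differed by -0.38 and 0.34. The endothelial list above was lower in the same 2 pools, and its part in the FZD4 difference was not tested. LRP5, the co-receptor, was highest in uncovered normal light, at 0.35, against -0.23, -0.34 and -0.45 in uncovered violet, covered normal and covered violet light. Its 2 passing probes differed in the goggle difference under normal light, -0.69 and 0.49.

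FZD1 and FZD7, close relatives that both bind canonical Wnts, shared a pattern. FZD1 (NM_001030337) lay at -3.06 in uncovered normal, -2.49 in uncovered violet, -1.77 in covered normal and -2.02 in covered violet light. FZD7 (NM_204221) lay at -6.09, -5.52, -4.88 and -5.03 in the same order. Both were thus lowest in uncovered normal light and highest in covered normal light. Covered minus uncovered was 1.29 for FZD1 and 1.22 for FZD7 under normal light, and 0.47 and 0.50 under violet light. The second FZD1 probe gave 0.36 and 0.21. With quantile normalization the normal-light differences were 0.97 and 0.82.

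FZD2, FZD3, FZD6 and FZD9 stayed under 2-fold in all 4 comparisons. FZD2 was highest in covered normal light (-0.50) and lowest in uncovered violet light (-1.18), with covered minus uncovered at 0.65 under normal and 0.26 under violet light. FZD6, which also acts in planar cell polarity, had 5 passing probes. Its brightest probe differed by 0.06 for goggles under normal light, while its other passing probes reached 1.76. FZD3, a receptor of axon guidance, was higher under violet light by 0.25 in uncovered and 0.20 in covered eyes by its brightest probe. Its 5 passing probes ranged from 0.08 to 0.96 and from -0.18 to 0.48.

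All 5 secreted inhibitors with a probe passed, and none reached 2-fold in any of the 4 comparisons. WIF1 (NM_001199607) crossed over between lights. Its log2 level was -0.18 in uncovered and 0.46 in covered eyes under normal light, and 0.72 in uncovered and 0.17 in covered eyes under violet light. Goggles thus differed by 0.64 under normal and -0.56 under violet light, and light by 0.91 in uncovered and -0.29 in covered eyes. A second WIF1 probe gave 0.86, -0.49, 0.90 and -0.45 for the same 4 differences, so its 2 probes had the same signs throughout. The summed level of the lens list had the same order of pools as WIF1, lowest in uncovered normal and highest in uncovered violet light. Its part in the WIF1 difference was not tested.

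FRZB, a Frizzled-related inhibitor first known from cartilage, had probes that disagreed on goggles. The log2 level of its brightest probe was -1.62 in uncovered and -1.64 in covered eyes under normal light, and -2.08 in uncovered and -2.06 in covered eyes under violet light. Violet minus normal light was -0.46 and -0.42, while goggles differed by -0.03 and 0.01. Its 5 passing probes ranged from -0.67 to 0.03 for light in uncovered eyes and from -0.68 to -0.25 in covered eyes. For goggles they ranged from -0.33 to 1.26 under normal and from -0.20 to 0.55 under violet light, and 2 of the 5 differed by 1.26 and 0.37 under normal light. Cartilage markers were nearer to 0, with list medians of -0.19 and -0.34 over 3 measured genes, while the fibroblast list given above was lower in the same pools. The part of either in the FRZB difference was not tested. Under the table's labels, the brightest FRZB probe would be higher in covered eyes by 0.42 under normal and 0.46 under violet light.

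SFRP1, an inhibitor found in developing retina, was lowest in uncovered normal light, at -1.60, against -1.29, -0.85 and -1.16 in uncovered violet, covered normal and covered violet light. Its 2 passing probes were higher in covered eyes by 0.75 and 1.15 under normal light and by 0.13 and 0.24 under violet light. Another, brighter SFRP1 probe carried an outlier mark and was left out, and it differed by -0.19 and -0.02. SFRP2, covered minus uncovered, differed by -0.22 and -0.31. DKK3, a divergent Dickkopf protein, spanned 0.15 over the pools, and its 2 probes gave goggle differences of -0.14 and -0.16 under normal light.

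Among the intracellular members, TCF7L2 (NM_001206510), a nuclear partner of beta-catenin, reached 2-fold in 1 comparison. Its log2 level was -1.37 in uncovered and -2.10 in covered eyes under normal light, and -2.39 in uncovered and -2.52 in covered eyes under violet light. Violet minus normal light was -1.02 in uncovered eyes (2.02-fold) and -0.43 in covered eyes. Its 3 passing probes ranged from -1.02 to -0.01 for the first of these, and the other 2 stayed under 2-fold. CTNNB1, beta-catenin itself, spanned 0.26 by its brightest probe, at 4.33, 4.07, 4.34 and 4.21 in uncovered normal, uncovered violet, covered normal and covered violet light. Its 4 probes disagreed on goggles under normal light, from -0.84 to 1.06.

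AXIN2, a scaffold that is also a common target of canonical signalling, lay at 1.50, 1.72, 1.86 and 1.79 in the same order. It was higher in covered eyes by 0.36 under normal and 0.07 under violet light by its brightest probe. The second of these is less than the spot SD of 0.0829 and became -0.03 with median scaling. The other passing AXIN2 probe gave 0.13 and -0.04. AXIN1, the constitutive scaffold, differed by -0.24 and -0.13. TCF7 was highest in covered violet light, at -4.39 against -4.66, -4.75 and -4.70, and LEF1 spanned 0.10 by the 1 probe that passed. That narrow span depended on the scaling. Its goggle difference under normal light was -0.04, but -0.47 with quantile normalization and 0.63 with normexp correction. Another LEF1 probe was well above background in the uncovered normal-light pool alone.

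**Figure D2:**
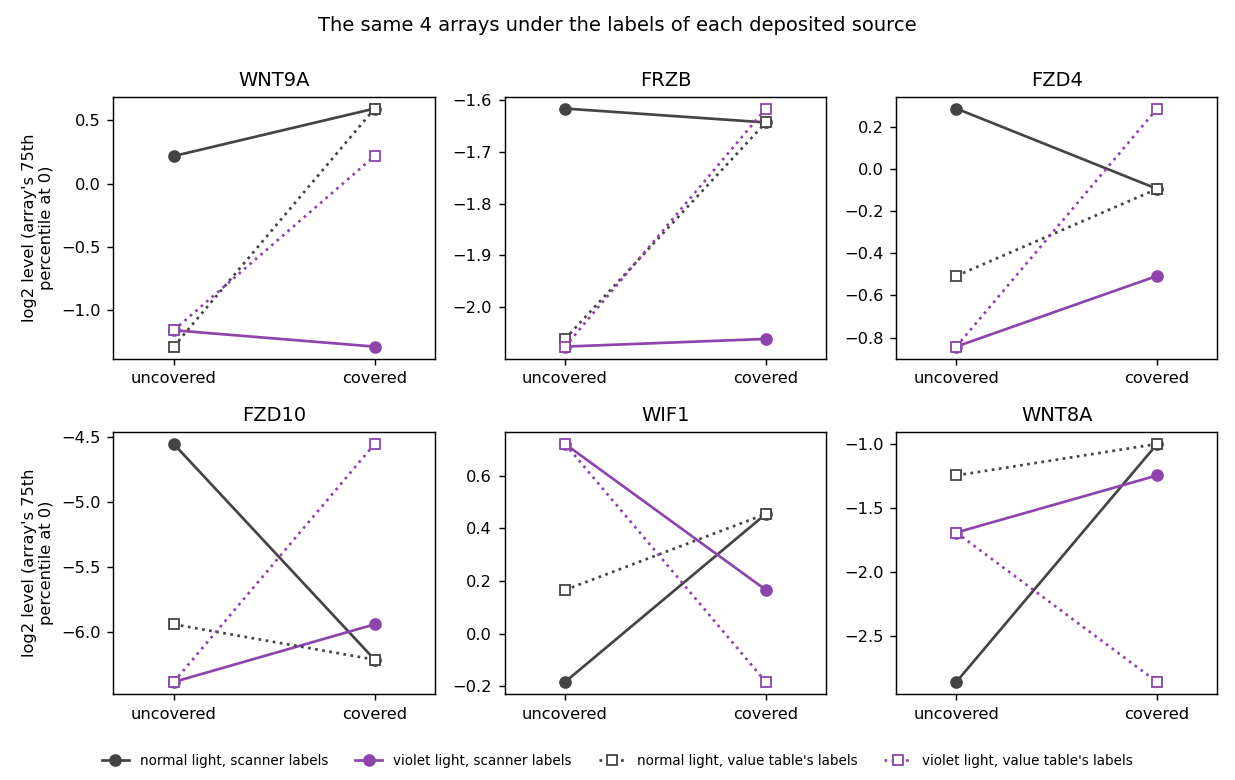
Log2 levels of 6 members in uncovered and covered eyes, with a separate axis range for each gene. Filled points and solid lines use the labels of the scanner files, and open squares with dotted lines those of the value table. WNT9A and the brightest probe of FRZB read as a light difference under the first and as a goggle difference under the second, while other FRZB probes differed by up to 1.26 for goggles under the first.

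For goggles under normal light, 3 of 29 members (10.3%) were at least 2-fold higher, against 4.7% of all genes, and 1 (3.45%) was lower, against 1.41%. WNT8A, FZD1 and FZD7 were higher and FZD10 was lower. The median over members was -0.03, against 0.02 over all genes. All 4 of these differences include the uncovered normal-light array.

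Under violet light, goggles moved no member by 2-fold in either direction, against 0.395% of all genes higher and 0.686% lower. The members ranged from -0.56 (WIF1) to 0.50 (FZD7), with a median of 0.01 against 0.04 over all genes. Of the 29 members, 7 had both covered pools above both uncovered pools, against 35.0% of all genes, and 7 had both below, against 26.6%. By sign alone, 8 members were higher in covered eyes in both lights, against 42.6% of genes, and 8 lower, against 32.2%. By the probes that represent them, the 7 with pools fully above were AXIN2, FZD1, FZD2, FZD6, FZD7, SFRP1 and WNT8A. The second passing AXIN2 probe did not have this order. No member reached 2-fold in both lights, where 0.333% of genes did in each direction.

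For light in uncovered eyes, 1 member (3.45%) was at least 2-fold higher under violet light, against 1.23% of all genes, and 4 (13.8%) were lower, against 1.69%. WNT8A was the higher one, and the lower ones were FZD10, WNT9A, FZD4 and TCF7L2. In covered eyes no member was 2-fold higher, against 0.0832% of genes, and WNT9A alone was lower, against 2.27%. Of the 29 members, 8 had both violet-light pools below both normal-light pools by any amount, against 12.4% of all genes. By their brightest probes they were CTNNB1, FRZB, FZD4, FZD9, TCF7L2, WNT5A, WNT5B and WNT9A. In uncovered eyes WNT5A and WNT5B differed by -0.05 and -0.06, less than the spot SD of 0.0822. The probes of CTNNB1 ranged from -0.75 to 0.59 there. FZD3 and WNT11 had both violet-light pools above by their brightest probes, against 11.1% of genes. Other probes differed, with a WNT11 probe at -0.27 in uncovered eyes and an FZD3 probe at -0.18 in covered eyes. By sign alone, 3 members were higher under violet light in each eye, against 30.0% of genes, and 12 lower, against 23.4%. The median over members in covered eyes was -0.13, against 0.02 over all genes. There 20 of 29 members lay below 0 and 9 above, while 58.0% of all genes lay above.

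Under the table's labels the counts change names. Goggles under normal light then gave 1 member 2-fold higher (WNT9A), against 2.27% of genes, and 0 lower, against 0.0832%. Goggles under violet light gave 4 higher (FZD10, WNT9A, FZD4 and TCF7L2), against 1.69%, and 1 lower (WNT8A), against 1.23%. Violet light gave 0 in either direction in uncovered eyes, against 0.686% higher and 0.395% lower. In covered eyes it gave 1 higher (FZD10), against 1.41%, and 3 lower (WNT8A, FZD1 and FZD7), against 4.7%. A direction shared by both label sets needs covered normal light and uncovered violet light at the ends of the order. CTNNB1 and FZD2 were highest in covered normal and lowest in uncovered violet light, the pattern of 6.7% of all genes, and DKK3 the other way round, that of 5.74%. The place of CTNNB1 rests on 0.0019 between the normal-light pools, less than the spot error. That difference was -0.02 with quantile normalization, -0.32 with median scaling and -0.07 with normexp, and the other 3 CTNNB1 probes had other orders. The places of FZD2 and DKK3 rest on violet minus normal light in uncovered eyes, -0.04 and 0.01. Both are also less than the spot SD of 0.0822. For DKK3 this difference became -0.16 with median scaling, -0.04 with normexp and -0.01 with cyclic loess. For FZD2 it stayed below 0 under every setting. By their brightest probes, CTNNB1, FZD2 and DKK3 spanned 0.26, 0.69 and 0.15, each below 2-fold. By pool, uncovered normal light was highest in 10 members (36.2% of genes) and lowest in 8 (38.4%). Uncovered violet light was highest in 4 (12.2%) and lowest in 8 (18.7%). Covered normal light was highest in 11 (23.7%) and lowest in 5 (27.2%), and covered violet light highest in 4 (27.9%) and lowest in 8 (15.6%). The share highest in uncovered normal light was thus close to that of all genes.

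Subtracting the goggle difference under normal light from that under violet light gives 1 value for each gene, whichever labels are used. It was at least 1 in size for 4 of 29 members. It was positive for FZD10 (2.10) and WNT11B (1.08), against 0.707% of all genes, and negative for WNT8A (-1.41) and WIF1 (-1.20), against 2.48%. All 4 arrays enter this value.

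The sign of many goggle differences under normal light went with probe brightness. Over all 35407 passing probes, cut into 5 equal groups by mean level, the median difference was 0.40 in the dimmest and -0.03 in the brightest group, and 0.17 and 0.01 for goggles under violet light. For light in uncovered eyes it was 0.19 and 0.01, and in covered eyes -0.01 and 0.05. FZD7 lay in the dimmest group and FZD1 and WNT8A in the middle one, where the median was 0.15 and the upper quartile 0.58 for goggles under normal light. By the probes that represent them, AXIN2, FZD1, FZD7, SFRP1 and WNT8A had levels in the exact reverse order of the arrays' brightness before scaling. So did 12.7% of all genes. The second passing probes of AXIN2 and FZD1 did not have this order. FZD10, also in the dimmest group, went the other way. The part of probe brightness in these differences was not tested. With cyclic loess, a scaling by level chosen after seeing the data, the goggle difference under normal light was 1.68 for WNT8A, 1.03 for FZD1, 0.86 for FZD7 and -2.05 for FZD10.

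**Figure D3:**
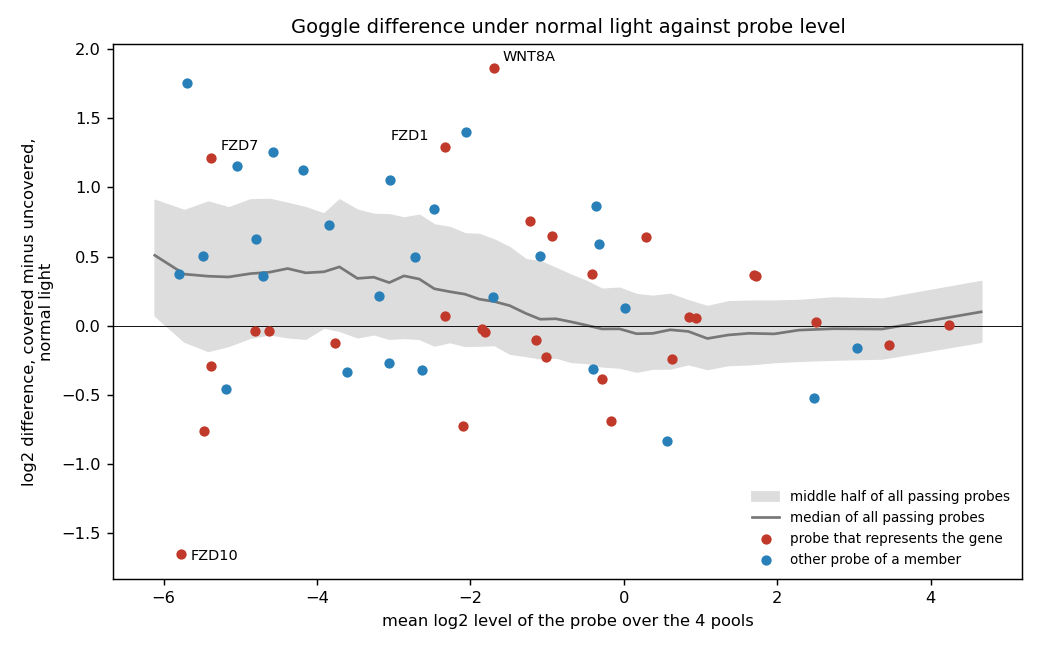
Log2 difference, covered minus uncovered under normal light, against the mean log2 level of each probe. Points are the 56 passing probes of members, and the line and band are the median and interquartile range of all 35407 passing probes in bins of equal size. The line falls from about 0.40 for dim probes to near 0 for bright ones, WNT8A lies far above the band, and FZD10 far below it.

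Several members had probes that disagreed. Of the 29, 14 had at least 2 passing probes. Over all 3125 genes with at least 2, the median gap between the highest and lowest probe was 0.52 for goggles under normal light and 0.23 under violet light, and 0.34 and 0.12 for light in uncovered and covered eyes. For goggles under normal light, the probes of AXIN1 ranged from -0.31 to 1.40 and those of TCF7L2 from -0.72 to 0.85. The 2 probes of DKK3 differed by -0.14 and -0.16 there. Those of WIF1 had the same signs in all 4 comparisons, and lay furthest apart for goggles under normal light, at 0.64 and 0.86. For goggles under violet light, the probes of WNT4 differed by -0.44 and 0.75, where 0.896% of genes had probes 2-fold apart. That share was 22.6% for goggles under normal light, and 8.86% and 0.96% for light in uncovered and covered eyes. Of the members 2-fold apart for goggles under normal light, WNT8A, FZD7 and FZD10 had 1 passing probe each.

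**Figure D4:**
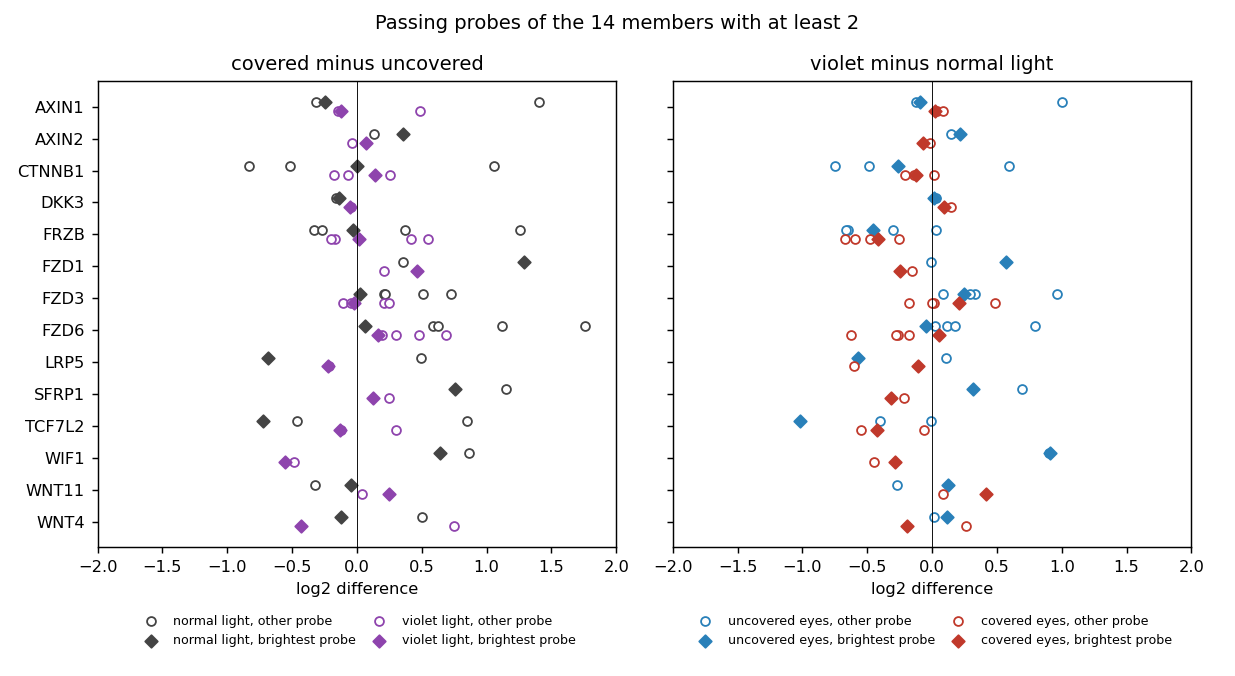
Log2 differences of every passing probe of the 14 members with at least 2, for goggles in each light (left) and for light in each eye (right). Filled diamonds are the brightest probe and open circles the others. The WIF1 probes share their sign in every comparison, while those of CTNNB1, AXIN1 and TCF7L2 fall on both sides of 0 for goggles under normal light.

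Other genes of the pathway were followed from a list of 71, of which 26 passed. Under the scanner labels none was 2-fold higher in any of the 4 comparisons, where 0.0832% to 4.7% of all genes were. Under the table's labels, NDP would be 2-fold higher in covered eyes under normal light. SOSTDC1 would then be 2-fold higher under violet light in covered eyes. The values below use the scanner labels. For goggles under normal light, SOSTDC1, a secreted antagonist of BMP and Wnt signals, differed by -1.28. No other listed gene was 2-fold lower there, against 1.41% of all genes. Its log2 levels were -4.63, -5.42, -5.91 and -5.68 in uncovered normal, uncovered violet, covered normal and covered violet light, highest in the same pool as FZD10. Like the FZD10 probe, its probe was dim, below the normexp offset on all arrays but uncovered normal light. Its differences under other settings are not given here. NDP, which encodes Norrin, the ligand of FZD4, was 2-fold lower under violet light in covered eyes (-1.08), where 2.27% of all genes were. Its log2 levels were -1.20, -1.26, -0.67 and -1.75 in the same order, so it was highest in covered normal light. The list medians were 0.08, 0.08, -0.07 and -0.01 for goggles under normal and violet light and for light in uncovered and covered eyes.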

How the data were processed

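Per the labels' protocols, RNA was labelled with Cy3 and hybridised to 1-colour Agilent chicken arrays. Images were quantified in Agilent Feature Extraction 11.5.1.1, a version the file headers and submitters' notes both name. The deposited intensity of each spot had its background and spatial trend removed by the software, with no scaling across arrays. Other deposited columns are 0 or 1 marks for saturation, outliers and detection. The authors' value table is of linear intensity, by a normalization not stated there.

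Of 43603 probes, 11711 were named through their unversioned RefSeq accession (assembly GRCg7b). The headers state an older build, so no coordinates are given. Probes with an outlier mark (26) were left out, and none was saturated. Differences are of log2 processed signal scaled to each array's 75th percentile, computed in Python 3.11.15, with alternatives in R 4.3.3 and limma 3.58.1. The steps were tested on simulated data.

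Named members are those spanning 2-fold and the 3 widest of each role. Other pathway genes are named where 2-fold apart. The members and lists were chosen with earlier results of these data known. The arrays' number limits precision.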

Additional observations from a re-analysis of the deposited data

Results flagged for a closer look

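In 3 members the goggle difference had opposite signs in the 2 lights, at least 1 apart on the log2 scale. FZD10 differed by -1.65 under normal and 0.44 under violet light, a gap of 2.10. WNT11B differed by -0.76 and 0.32, a gap of 1.08. WIF1 differed by 0.64 and -0.56, a gap of -1.20. With normexp background correction the goggle differences became 0.27 and 0.52 for FZD10 and 0.63 and 0.41 for WNT11B, so the opposite signs were lost in 2 of the 3, while WIF1 gave 0.69 and -0.50. The offset added by that correction stood above the levels of FZD10 and WNT11B on all arrays but uncovered normal light. Its part in the lost signs was not tested, so this setting does not decide between the 2 readings. Each light has 1 array per eye, and the difference between lights was not tested.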

How the results depend on the processing

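Counts of members at least 2-fold apart changed most for comparisons with the uncovered normal-light array. For goggles under normal light, the 3 higher members became 1 with quantile normalization or array median scaling, 2 with the mean of all passing probes or cyclic loess, 0 among genes above the median of mean signal and 6 with no background filter. The share of all genes moved too, from 4.7% to 2.45%, 2.14%, 4.66%, 2.66%, 1.55% and 6.16% in that order. The 1 lower member became 2 with quantile normalization or cyclic loess, 4 with median scaling, and 0 with normexp correction or above that median, while the share of genes, 1.41% before, became 2.89%, 2.54%, 4.33%, 0.645% and 0.938%. With median scaling, the median of all genes moved to -0.30 there and to -0.18 for light in uncovered eyes. For goggles under violet light, 1 member was higher with no filter. For light in uncovered eyes, the 1 higher member became 0 with quantile normalization, median scaling or above that median, and 2 with no filter, while the 4 lower became 2 with normexp correction or above that median. In covered eyes, the 1 lower member became 2 with no filter. The subset above the median of mean signal holds 16 members and leaves out WNT8A, FZD1, FZD7, FZD10 and TCF7L2 by construction. The authors' deposited table was set against the scanner signals under the table's labels. In it, the 1 lower member for goggles under violet light became 0, where 0.686% of genes were lower. For light in covered eyes 2 were higher in place of 1, against 2.66% of genes, and 1 lower in place of 3, against 2.41%.

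Of 332 values of the 13 named members under other settings, 321 moved by less than the median gap between probes of a gene in that comparison, 10 moved by more and 1 changed sign after reaching 2-fold. Many of the 321 could not move. Leaving out the background filter, or keeping genes above the median of mean signal, left the same probe and value for each named member measured. The mean of all passing probes did so for members with 1 such probe. A value can cross 2-fold within the median gap between probes, as FZD1 (0.97) and FZD7 (0.82) did for goggles under normal light with quantile normalization. Of the 10, 8 were with normexp correction and 2 with the mean of probes, both of TCF7L2 (-0.11 for goggles under normal light, -0.47 for light in uncovered eyes). With normexp, goggles under normal light went from -0.76 to 0.63 for WNT11B and from -0.04 to 0.60 for TCF7, and light in uncovered eyes from -1.83 to -0.35 for FZD10. The reversal was also with normexp: FZD10 became 0.27 for goggles under normal light, where the offset of 50 stands at -5.40 to -4.00 on the level scale of the 4 arrays, above its level on 3 arrays. For WNT11B and TCF7 too, the offset stood above the level on all arrays but uncovered normal light. Under all 7 other settings, WNT9A ranged from -1.55 to -1.32 for light in uncovered and from -1.95 to -1.74 in covered eyes. It has 1 probe, so only quantile normalization, median scaling, normexp and cyclic loess could move these values. No paired analysis was possible because each group is 1 pool with no replicate number. Naming by the files' own gene names was not run, since the files hold no such column. Without the uncovered normal-light array, goggles under violet light (no member at 2-fold) and light in covered eyes (WNT9A) are left of the 4 comparisons. Both include the covered violet-light array, whose label is also disputed. Covered normal against uncovered violet light is left too, where WNT9A was 1.75 higher in the covered pool.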
